A study of Mus musculus with 2 samples.

Results

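The guidance ligands and receptors comprise the semaphorins with their plexin and neuropilin receptors, the Slits with the Robos, the netrins and netrin-Gs with Unc5 and Dcc, the repulsive guidance molecules Rgma and Rgmb, and the ephrins with the Eph receptor kinases. They were taken by gene symbol, by a rule that uses no measured value, although earlier results of these data were known when the families were picked. A total of 71 such genes had a row of their own among 20466 protein-coding genes of the table, and 53 of them reached 1 FPKM (fragments per kilobase of transcript, scaled to library size) in at least 1 of the 2 libraries. Of the other 18, 13 lay above 0 and below 1 FPKM, and 5 (Sema3f, Sema4f, Dcc, Efna3 and Epha6) were listed at 0 in both libraries. Ntn3 shares a row with Tbc1d24 and was left out.

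RNA was sequenced from bone marrow cells of adult C57BL/6 mice that lacked CD45, CD31 and Ter119 (leukocyte, endothelial and red cell antigens) at the sort and carried GFP under nestin regulatory sequence, a reporter of perivascular stromal cells. Control cells were taken from Nes-gfp littermates, and the others from Nes-gfp;Mx1-cre;JAK2-V617F mice. In the latter, interferon-induced Cre recombination switches on the activating kinase mutation of myeloproliferative neoplasms. Whether the sorted cells themselves carried the mutation was not tested. Both genotypes received pIpC, a synthetic double-stranded RNA that induces interferon, and cells were collected 6 weeks later from 3 pooled animals per library. The labels give neither Mx1-cre nor the mutation for the controls, so the effects of Cre and of JAK2-V617F cannot be told apart. With 1 library per genotype no replicate error exists and no test between genotypes was possible, so every difference below is one between 2 pools of cells.

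Guidance cues were first described as signals that attract or repel growing axons. In the adult marrow and skeleton, stromal cells, osteoblasts, endothelium and leukocytes also use them to control adhesion, migration and vessel patterning. Slits signal through Robos, secreted class 3 semaphorins through neuropilin and plexin complexes, membrane semaphorins directly through plexins, netrins through Dcc and Unc5, and RGM proteins through neogenin and the BMP pathway. Ephrins and Ephs are both held on cell surfaces and signal at contacts in both directions.

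Depth was estimated at about 5271421 fragments for the control library and 6176139 for the JAK2-V617F pool, so 1 fragment on a 2 kb transcript was worth 0.103 and 0.0880 FPKM. Stromal markers were present in both libraries: all 8 listed (Lepr and Cxcl12 among them) were measured and within 2-fold, with summed levels of 1149 and 914 FPKM. Transcripts of the depleted antigens were not absent, with Ptprc (CD45) at 5.38 and 8.79 FPKM and Pecam1 (CD31) at 17.1 and 19.0 FPKM. RNA of blood cells was abundant: 8 erythroid markers summed to 2540 and 1274 FPKM, with 2 lower and all 8 below 0 on the log2 scale, and 8 neutrophil markers to 2400 and 2347 FPKM, with 3 lower. Of 5 megakaryocyte markers (sums 8.31 and 53.8 FPKM), Pf4 and Ppbp were listed at 0 in the control pool. Jak2 was at 24.5 FPKM in the control pool and 29.9 FPKM in the JAK2-V617F pool, but the table holds no separate row for the mutant allele, and this value does not check the genotype. In bulk RNA, fewer cells of a type and less RNA per cell cannot be told apart.

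The comparison asked how guidance gene expression in nestin-GFP+ cells differed in mice with the neoplasm. A gene was called higher or lower when log2((JAK2-V617F FPKM + 1)/(control FPKM + 1)) reached 1 or -1, a 2-fold difference on a scale that understates changes of low genes. Among the 53 measured genes, 6 were higher in the JAK2-V617F pool (Sema4a, Ntn4, Robo4, Efna1, Efna4 and Unc5a). Lower were 11 (Slit2, Rgma, Plxnb2, Plxna3, Epha2, Epha1, Efna2, Sema3b, Sema3g, Sema4g and Sema5b). By the same rule 10.1% of 12520 protein-coding genes were higher and 8.75% were lower, against 11.3% and 20.8% of the guidance genes. Their median log2 ratio was -0.02, beside -0.04 for all protein-coding genes, and 26 lay above 0 and 27 below. A gene near 0 in a pool passes the filter only where it is high, so some of these calls follow from the filter: Robo4, Efna1, Efna4 and Unc5a reached 1 FPKM only in the JAK2-V617F pool, and Efna2, Epha1, Sema3g, Sema4g and Sema5b only in the control pool. Among the 39 guidance genes at 1 FPKM or more in both pools, 2 were higher (Sema4a and Ntn4) and 6 lower, or 5.13% and 15.4%, beside 5.67% and 6.82% of 10886 protein-coding genes.

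Calls were also counted at 2 levels of expression. Among the 29 guidance genes at 5 FPKM or more in a library, 2 were higher and 6 lower (20.7%), where the protein-coding background at that level was 6.74% higher and 7.98% lower. Their median log2 ratio was -0.40, beside -0.08 for protein-coding genes of that level. Among the 24 at 1 to 5 FPKM, 4 were higher and 5 lower (20.8%), against a background of 21.1% and 11.3%, and the median was 0.37, beside 0.18. These 4 reached 1 FPKM only in the JAK2-V617F pool and these 5 only in the control pool. They passed the filter only where they are high, so their shares do not repeat those at 5 FPKM or more. The same limit holds for some calls at that level. Sema4a reached 5 FPKM only in the JAK2-V617F pool, and Plxna3, Epha2 and Sema3b only in the control pool. With 53 genes and 1 library per genotype these shares describe the 2 libraries only.

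**Figure D1:**
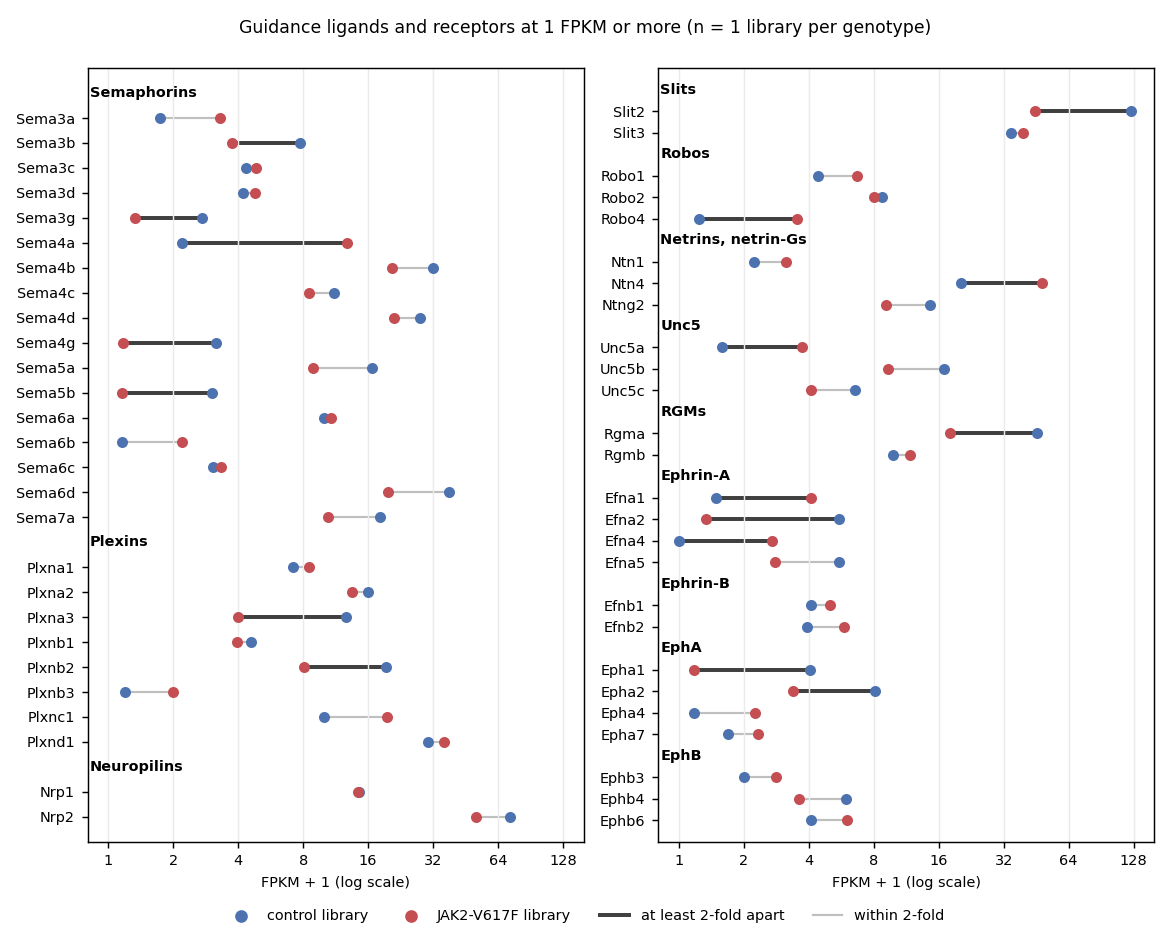
FPKM + 1 on a log scale for the 53 guidance genes at 1 FPKM or more, grouped by family, in the control (blue) and JAK2-V617F (red) library, 1 library each with no error bars. Dark lines join the 17 genes at least 2-fold apart on this scale. Slit2 moves from 124 to 43.6 FPKM and Ntn4 from 19.4 to 47.0 FPKM.

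**Figure D2:**
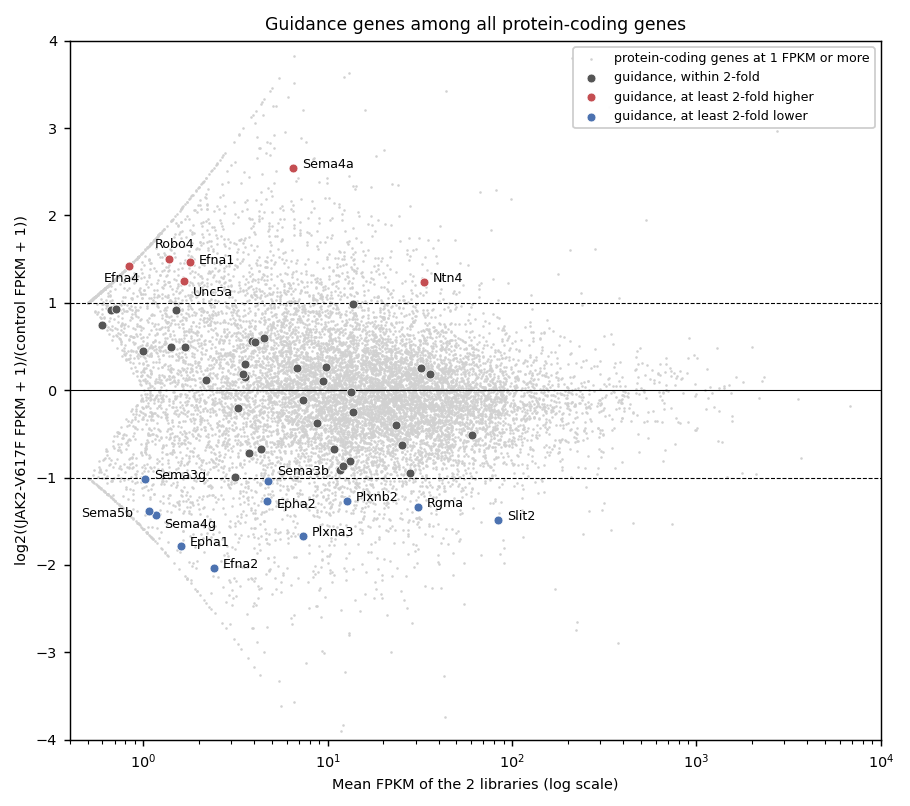
log2 ratio (JAK2-V617F over control, pseudocount 1) against mean FPKM for 12520 protein-coding genes (grey) and the 53 guidance genes (coloured points), with dashed lines at 2-fold. The 11 lower guidance genes run from Sema3g to Slit2 along the axis of level, and 15 protein-coding genes lie beyond the plotted range of -4 to 4.

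Sequence upstream of the start sites is shown for 6 of the genes with a call, the most abundant lower gene (Slit2), a lower receptor (Plxna3) and 4 higher genes. Each line gives the 250 bases before a RefSeq start in build GRCm38.p6, read 5′ to 3′ on the gene's strand. Capitals mark GC boxes (GGGCGG on either strand) and a TATA box (TATAAA on either strand), with overlapping matches counted separately. Coordinates are chr5:47982905-47983154 (plus strand) for Slit2, chrX:74328816-74329065 (plus) for Plxna3, chr10:93640799-93641048 (plus) for Ntn4, chr3:88461183-88461432 (minus, the outermost of 4 Sema4a starts) for Sema4a, chr3:89280952-89281201 (minus, the outer of 2 starts) for Efna1 and chr9:37401722-37401971 (plus) for Robo4. The deposited rows of Ntn4, Efna1 and Robo4 begin ahead of or inside these windows, so their starts in the authors' annotation differ from the RefSeq starts used.
Slit2: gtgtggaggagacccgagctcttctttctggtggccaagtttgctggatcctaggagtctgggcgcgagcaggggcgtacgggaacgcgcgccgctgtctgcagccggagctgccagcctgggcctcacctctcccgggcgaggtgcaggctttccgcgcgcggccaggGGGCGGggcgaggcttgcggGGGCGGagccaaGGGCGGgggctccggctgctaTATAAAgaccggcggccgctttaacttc
Plxna3: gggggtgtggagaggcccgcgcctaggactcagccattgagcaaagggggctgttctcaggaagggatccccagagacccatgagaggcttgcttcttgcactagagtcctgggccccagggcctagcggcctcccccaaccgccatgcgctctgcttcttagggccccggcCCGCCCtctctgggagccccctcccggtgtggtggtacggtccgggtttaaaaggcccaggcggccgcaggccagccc
Ntn4: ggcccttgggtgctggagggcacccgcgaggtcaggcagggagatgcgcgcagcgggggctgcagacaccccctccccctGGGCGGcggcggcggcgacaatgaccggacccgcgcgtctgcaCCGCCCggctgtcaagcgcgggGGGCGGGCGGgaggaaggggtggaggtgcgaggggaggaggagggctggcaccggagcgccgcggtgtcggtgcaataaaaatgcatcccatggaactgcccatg
Sema4a: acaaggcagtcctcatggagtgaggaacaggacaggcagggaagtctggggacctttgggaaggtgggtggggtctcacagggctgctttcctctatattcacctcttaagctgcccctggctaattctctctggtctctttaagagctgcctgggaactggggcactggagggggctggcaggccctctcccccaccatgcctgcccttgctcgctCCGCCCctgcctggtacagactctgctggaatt
Efna1: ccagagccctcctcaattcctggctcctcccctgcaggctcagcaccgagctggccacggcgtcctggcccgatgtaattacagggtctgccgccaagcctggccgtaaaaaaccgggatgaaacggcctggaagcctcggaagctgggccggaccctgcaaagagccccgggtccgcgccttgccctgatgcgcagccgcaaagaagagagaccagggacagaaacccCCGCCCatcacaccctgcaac
Robo4: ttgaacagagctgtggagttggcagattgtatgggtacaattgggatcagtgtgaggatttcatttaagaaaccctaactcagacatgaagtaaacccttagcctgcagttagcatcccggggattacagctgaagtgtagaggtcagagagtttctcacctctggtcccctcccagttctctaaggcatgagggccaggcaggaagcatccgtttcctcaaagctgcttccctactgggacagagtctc

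The Slit2 window was the one of these 6 with a TATA box, beside 3 GC boxes, and 69.6% of its bases were G or C. Ntn4 held 4 GC boxes at 73.2% G or C, whereas the Robo4 window held none at 49.6%. RefSeq gave windows for 60 of the 71 genes, 78 in all, and 70.5% of these held a GC box, against 42.6% of 21263 windows of all protein-coding genes. A TATA box was in 5.13% of guidance windows and 11.6% of all windows. With both strands searched, the STAT motif TTCNNNGAA was in 2 of the 78 (upstream of Efna3 and Epha3), or 2.56% against 6.58% of all windows. The interferon-response motif, a pair of GAAA repeats with any 2 bases between them, was in 2 (Plxnc1 and Sema6b, 2.56% against 2.96%) and the EBF motif, TCCC and GGGA with any 2 bases between them, in 2 (Plxnb1 and Robo3, 2.56% against 0.832%). None of these 3 motifs was in the 20 windows of 15 of the 17 genes called higher or lower (Rgma and Sema3b had no window), which says only that those letters are not in these 250 bases.

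Slit2 was the most abundant guidance transcript of the control cells and the one with the largest difference in FPKM. Slit proteins are large secreted ligands that repel axons and restrain migration through Robo receptors. Slit2 (chromosome 5, 47983155 to 48306282, GRCm38) was at 124 FPKM in the control pool and 43.6 FPKM in the JAK2-V617F pool, a log2 ratio of -1.48. It ranked 1 of 71 in the control pool, where it made up 18.6% of the summed FPKM of all guidance genes, and 3 in the JAK2-V617F pool. Its relative Slit3 (chromosome 11, 35121224 to 35708507), of similar structure, was at 33.4 and 38.2 FPKM (0.19), and Slit1 was below 1 FPKM in both libraries (0.213 and 0.0787). The 2 abundant Slits therefore lay on opposite sides of 0, and the share of Slit2 in the Slit sum was 78.6% and 53.3%.

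The Slit receptors were far lower than their ligands in both libraries. Robo2 was at 7.70 and 7.04 FPKM (-0.11) and Robo1 at 3.41 and 5.66 FPKM (0.59), the main Slit receptors of neurons and mesenchyme. Robo4, the endothelial Robo, was at 0.239 FPKM in the control pool and 2.51 FPKM in the JAK2-V617F pool (1.504). Robo3, whose row lies 1645 bases beyond that of Robo4 on chromosome 9, was listed at 0 in the control pool and was at 0.367 FPKM. The summed level of 9 endothelial markers was 37.4 FPKM in the control pool and 46.6 in the JAK2-V617F pool. Of 8 measured, 1 was past 2-fold (Emcn, 0.196 and 5.15 FPKM), and it reached 1 FPKM only in the JAK2-V617F pool. On the log2 scale 5 lay above 0 and 3 below. The 3 were Cdh5, Kdr (2.50 and 1.05 FPKM) and Tek (2.92 and 1.54 FPKM). Cdh5 was at 4.94 and 4.66 FPKM, Cldn5 was listed at 0 in the control pool and at 0.190 FPKM, and the part of endothelial RNA in the Robo4 value was not tested.

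Netrin-4 differed in the opposite direction to Slit2. Ntn4 (chromosome 10, 93640681 to 93747207) encodes a netrin of basement membranes that binds laminin, and was at 19.4 FPKM in the control pool and 47.0 FPKM in the JAK2-V617F pool (1.24). Its rank among the guidance genes was 9 and 2. Ntn1, the classical axon attractant, was at 1.23 and 2.13 FPKM (0.49). Ntng2 encodes a membrane-anchored netrin-G that binds a leucine-rich synaptic ligand rather than Dcc, and was at 13.5 and 8.11 FPKM (-0.67). Ntng1 was listed at 0 in the control pool and was at 0.271 FPKM in the JAK2-V617F pool.

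Among the netrin receptor genes taken by symbol, those measured were Unc5 genes, which mediate repulsion. The attractant receptor gene Dcc was listed at 0 in both libraries. Neo1 was not among these symbols and is given below with Rgma. Unc5b was at 15.996 and 8.32 FPKM (-0.87) and Unc5c at 5.56 and 3.10 FPKM (-0.68), both below 0 and within 2-fold. Unc5a was at 0.575 and 2.74 FPKM (1.25). The locus of the Unc5a row also spans Hk3, a hexokinase gene at 8.65 and 4.65 FPKM that overlaps the end of Unc5a on the other strand, and without stated strand use reads of the overlap cannot be told apart. Unc5d was listed at 0 in the control pool and was at 0.0176 FPKM in the JAK2-V617F pool.

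Rgma encodes a membrane-anchored ligand of neogenin and a BMP co-receptor. It was at 44.7 FPKM in the control, the rank of 3 among guidance genes, and at 17.1 FPKM in the JAK2-V617F pool (-1.34). The related Rgmb was at 8.83 and 10.8 FPKM (0.27), on the other side of 0. Neo1, the neogenin receptor of both, was at 16.4 and 10.2 FPKM (-0.64).

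Markers of several other cell types differed between the same pools as Slit2, Rgma and Ntn4. Of 8 listed osteoblast markers, 4 were lower by the same rule and none was higher, and their summed level was 3913 FPKM in the control pool and 1977 FPKM in the JAK2-V617F pool. The ratio of JAK2-V617F to control was 0.502 for the erythroid sum and 0.505 for the osteoblast sum. Without the top gene of each list (Hbb-b1 and Col1a1) it was 0.620 and 0.479. Of 8 chondrocyte markers 6 were higher, with sums of 333 and 1871 FPKM, of which Prg4 alone was 20.1 and 1234 FPKM and the other 7 together 313 and 637 FPKM. No osteoblast or chondrocyte marker was listed at 0 in either pool. None of 10 neuron markers reached 1 FPKM in the control pool and 7 did in the JAK2-V617F pool, with sums of 0.163 and 18.8 FPKM, 8 of the 10 (Snap25 and Tubb3 among them) listed at 0 in the control pool and 2 (Elavl4 and Th) in the JAK2-V617F pool. Of 8 measured Schwann cell markers 2 were higher, with sums of 674 and 4996 FPKM, of which Mbp alone was 624 and 4872 FPKM and the others together 50.1 and 124 FPKM. Sox10 was at 2.30 FPKM in both pools and Foxd3 was listed at 0 in the control pool. The part of these cell types in the guidance gene differences was not tested.

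**Figure D3:**
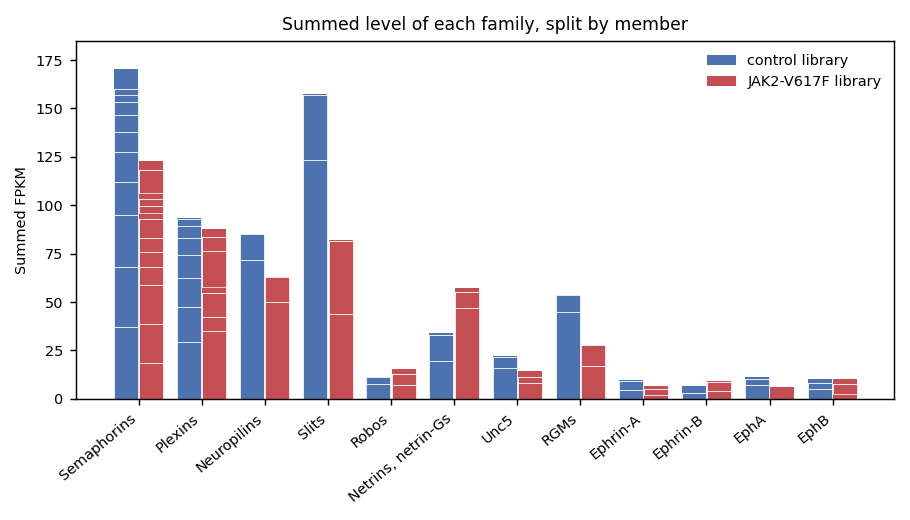
Summed FPKM of each family in the control (blue) and JAK2-V617F (red) library, with segments for single genes, stacked from the gene highest in the control at the bottom. The Slit sum is 157 and 81.8 FPKM and the netrin and netrin-G sum 34.1 and 57.5 FPKM. Segments of 3 FPKM or less have no white border.

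Semaphorins were the largest family, with 17 of 20 genes measured, 1 higher, 4 lower and 12 within 2-fold. Over all protein-coding genes 10.1% were higher and 8.75% lower. Of the 4 lower genes, Sema3g, Sema4g and Sema5b reached 1 FPKM only in the control pool. Their summed level was 170 FPKM in the control pool and 123 FPKM in the JAK2-V617F pool, and 10 of the 17 lay below 0. The most abundant were membrane-bound. Sema6d, a transmembrane ligand of plexin-A1, was at 37.1 and 18.8 FPKM (-0.95). Sema4b was at 30.96 and 19.7 FPKM (-0.63). Sema4d, a ligand of plexin-B1 that lymphocytes and osteoclasts also make, was at 26.9 and 20.1 FPKM (-0.40). Sema7a, a glycolipid-anchored ligand of plexin-C1 and of beta-1 integrin, was at 17.2 and 9.39 FPKM (-0.81). Sema5a, which carries thrombospondin repeats, was at 15.6 and 7.84 FPKM (-0.91). All 5 of these lay below 0 and within 2-fold on the deposited scale.

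Sema4a was the exception in its class and had the largest positive log2 ratio of the guidance genes. It encodes a membrane semaphorin best known from antigen-presenting and T cells, and was at 1.19 FPKM in the control pool and 11.7 FPKM in the JAK2-V617F pool (2.54). Of the other measured class 4 genes, Sema4c was at 10.1 and 7.52 FPKM (-0.38) and Sema4g at 2.16 and 0.172 FPKM (-1.43). The 9 macrophage and monocyte markers summed to 8.92 FPKM in the control pool and 32.8 FPKM in the other. Of these 2 reached 1 FPKM in both pools (Cd68, 3.14 and 13.2 FPKM, and Csf1r, 2.49 and 7.41 FPKM), 3 only in the JAK2-V617F pool and 1 only in the control pool. Emr1 was at 0.114 and 0.258 FPKM, C1qa was listed at 0 in both and Cd14 in the control pool. The 8 T and NK markers summed to 37.4 and 98.0 FPKM, mostly Nkg7 (27.3 and 76.6 FPKM), with Cd3d listed at 0 in both, Cd3e and Cd4 in the control pool and Cd8a and Trbc2 in the JAK2-V617F pool. Their part in the Sema4a value was not tested.

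Secreted class 3 semaphorins were low in these cells. Sema3b was at 6.71 and 2.76 FPKM (-1.04) and Sema3g at 1.71 and 0.334 FPKM (-1.02), both called lower by a small margin. Sema3a, a repellent that restrains osteoclasts in bone, was at 0.727 and 2.27 FPKM (0.92). Sema3c was at 3.34 and 3.81 FPKM (0.15) and Sema3d at 3.20 and 3.77 FPKM (0.18). Sema3e, the ligand of plexin-D1, stayed below 1 FPKM (0.217 and 0.979). The neighbours Sema3d, Sema3a and Sema3e on chromosome 5 were each at a larger value in the JAK2-V617F pool, as was Sema3c on the same chromosome, while Sema3b on chromosome 9 was lower. Among the other transmembrane genes, Sema6a was at 9.03 and 9.78 FPKM (0.10), Sema6c at 2.07 and 2.33 FPKM (0.12), Sema6b at 0.152 and 1.18 FPKM (0.92) and Sema5b at 2.01 and 0.152 FPKM (-1.38).

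Neuropilins and plexins form the semaphorin receptors. Nrp2 was the most abundant guidance receptor in both libraries, at 71.5 FPKM in the control pool and 49.8 FPKM in the JAK2-V617F pool (-0.51). Nrp1, which also binds VEGF, was at 13.5 and 13.3 FPKM (-0.02), nearly level on the deposited scale and just above 0 after each of 3 rescalings of the libraries. Plxnd1 was the most abundant plexin, at 29.2 and 35.1 FPKM (0.26).

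Plexins of the same subfamily differed in direction. Plxna3 (chromosome X, 74329066 to 74344689) was at 11.7 FPKM in the control pool and 2.99 FPKM in the JAK2-V617F pool (-1.67). Its relatives Plxna2 (15.0 and 12.4 FPKM, -0.25) and Plxna1 (6.17 and 7.52 FPKM, 0.25) were within 2-fold, and Plxna4 stayed below 1 FPKM. Plxnb2, a receptor of class 4 semaphorins, was at 18.4 and 7.07 FPKM (-1.27), whereas Plxnb1 was at 3.57 and 2.95 FPKM (-0.21) and Plxnb3 at 0.191 and 1.00 FPKM (0.75). Plxnc1, the receptor of Sema7a, was at 8.96 and 18.7 FPKM (0.98), just under the threshold and past it after each of the 3 rescalings. Sema7a and Plxnc1 thus lay on opposite sides of 0.

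Ephrins, the cell-surface ligands of the Eph kinases, were low, and those with a call were glycolipid-anchored ephrin-A genes. Efna1 and Efna4 reached 1 FPKM only in the JAK2-V617F pool and Efna2 only in the control pool. Each thus passed the filter only where it is high. Efna2 was at 4.49 FPKM in the control pool and 0.335 FPKM in the JAK2-V617F pool (-2.04), from about 47 and 4 fragments, a FPKM ratio of 0.0747 with a 95% exact counting interval of 0.0190 to 0.199. Efna5 was at 4.54 and 1.78 FPKM (-0.99), just within 2-fold. Efna1 was at 0.485 and 3.09 FPKM (1.46), from about 4 and 28 fragments. Efna4 was listed at 0 in the control pool and was at 1.68 FPKM in the JAK2-V617F pool. The locus of its row also spans the adjacent Adam15, a metalloprotease gene on the same strand at 10.01 and 23.3 FPKM, and how reads were divided between the pair was not tested. Efna1, Efna3 and Efna4 lie beside each other on chromosome 3, with Efna3 listed at 0 in both libraries. The leading ephrin-A was thus Efna5 in the control pool and Efna1 in the JAK2-V617F pool, with summed ephrin-A levels of 9.52 and 6.90 FPKM. The transmembrane ephrin-B genes were within 2-fold, Efnb1 at 3.09 and 4.02 FPKM (0.30) and Efnb2 at 2.93 and 4.81 FPKM (0.57), with Efnb3 below 1 FPKM (0.547 and 0.541).

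Of 9 EphA receptor genes 4 were measured, and the EphB genes were nearly level in sum. Epha2 was at 7.08 and 2.36 FPKM (-1.26) and Epha1 at 3.03 and 0.167 FPKM (-1.79). The locus of the Epha1 row also spans Zyx, an adhesion protein gene at 11.8 and 25.9 FPKM that overlaps Epha1 on the other strand, so reads of the overlap cannot be told apart without strand. Epha4, a receptor of both ephrin classes, was at 0.179 and 1.25 FPKM (0.93) and Epha7 at 0.688 and 1.31 FPKM (0.45). The other 5 EphA genes stayed below 1 FPKM, and the EphA sum was 11.4 and 6.08 FPKM. Ephb4, the receptor of ephrin-B2, was at 4.92 and 2.60 FPKM (-0.72), in a row that also covers Zan (0.0269 and 0.0682 FPKM). Ephb6, which lacks kinase activity, was at 3.10 and 5.01 FPKM (0.55) and Ephb3 at 1.00 and 1.82 FPKM (0.50). Ephb2 (0.862 and 0.962 FPKM) and Ephb1 (0.435 and 0.0870 FPKM) stayed below 1 FPKM, and the EphB sum was 10.3 and 10.5 FPKM.

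Summed over ligands, the level was 431 FPKM in the control pool and 306 FPKM in the JAK2-V617F pool, and without Slit2 it was 308 and 263 FPKM. Summed over receptors it was 234 and 197 FPKM. Of 30 measured ligands 4 were higher and 7 lower, and of 23 measured receptors 2 were higher and 4 lower. Over all protein-coding genes 10.1% were higher and 8.75% lower. The higher receptors Robo4 and Unc5a and the ligands Efna1 and Efna4 reached 1 FPKM only in the JAK2-V617F pool. The receptor Epha1 and the ligands Efna2, Sema3g, Sema4g and Sema5b reached it only in the control pool. These calls passed the filter only where the gene is high.

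How far sampling of fragments limits these values was computed from the estimated depth. Fragment numbers are exact only to the transcript length assumed, here the longest protein-coding transcript of the GENCODE basic set, since most of these genes have several. Slit2 rested on about 6387 and 2638 fragments (FPKM ratio 0.353, 95% counting interval 0.337 to 0.369) and Ntn4 on about 356 and 1012 (2.43, 2.15 to 2.75). Sema4a rested on about 19 and 221 fragments (9.87, 6.21 to 16.8) and Robo4 on about 6 and 74 (10.5, 4.61 to 29.6). Epha1 rested on about 50 and 3 fragments (0.0550, 0.0102 to 0.159). For the 16 called genes above 0 in both libraries no interval included 1, but 28 of the 36 genes within 2-fold also had intervals that left out 1. These intervals cover counting error only, and amplification without molecular identifiers and differences between animals or sorts add error that 1 library per genotype cannot show.

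**Figure D4:**
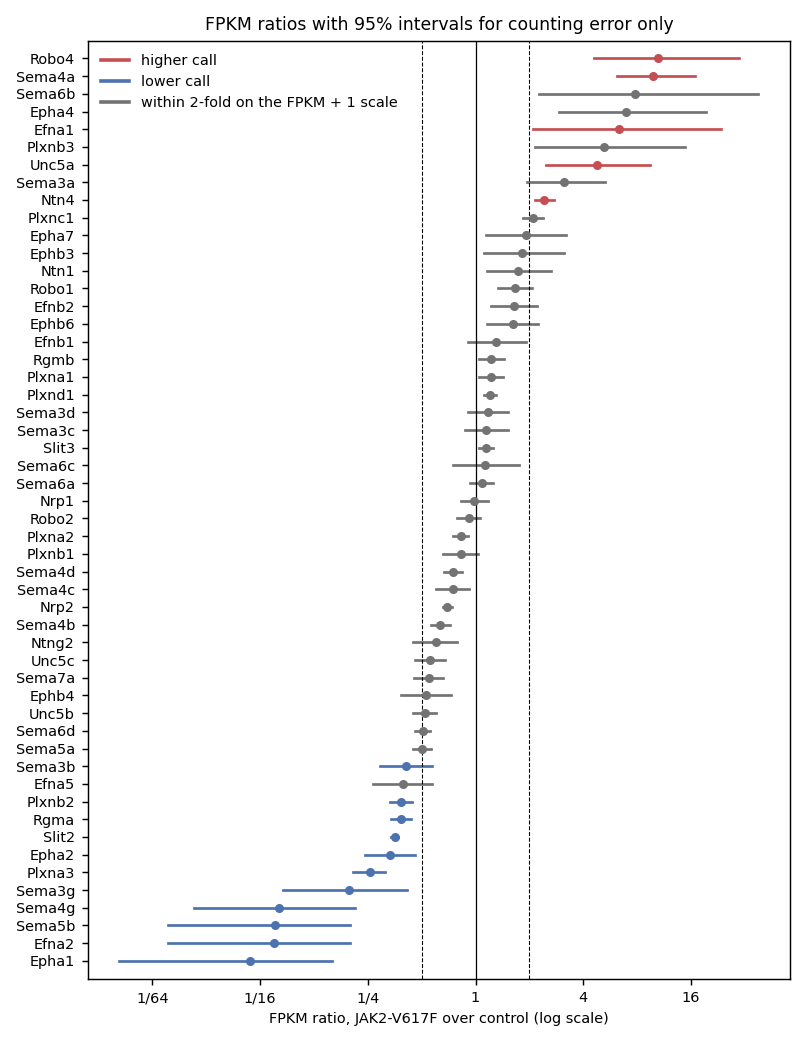
FPKM ratio of JAK2-V617F over control on a log scale for the 52 measured guidance genes above 0 in both libraries (points), with 95% exact intervals for counting error only (lines). Dashed lines mark 2-fold on this scale without a pseudocount. The interval of Slit2 spans 0.337 to 0.369, while that of Robo4, from about 6 control fragments, spans 4.61 to 29.6.

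Intracellular effectors of these receptors were described from a list of 61 names, 59 of which had distinct rows and 55 of which were measured. Of these 7 were higher and 4 lower, 12.7% and 7.27%, near the backgrounds of 10.1% and 8.75%, and the median log2 ratio was 0.08. Ngef, Dpysl5 and Ablim3 reached 1 FPKM only in the JAK2-V617F pool and Pak3 only in the control pool. Among the 51 effectors at 1 FPKM or more in both pools, 4 were higher and 3 lower. The shares of protein-coding genes at that level in both were 5.67% and 6.82%. The most abundant were within 2-fold: the actin-severing cofilin gene Cfl1 was at 595 and 501 FPKM, and the GTPase genes Rac1, Rhoa and Cdc42 at 131 and 138, 124 and 111, and 90.1 and 106 FPKM. Rnd2, a GTPase gene that shares its locus with Vat1 (7.68 and 5.09 FPKM), was at 1.10 and 25.0 FPKM (3.63). Ngef, which encodes the Eph-linked exchange factor ephexin, was at 0.563 and 11.1 FPKM (2.96), in a locus that also holds Neu2 (listed at 0 in the control pool and at 0.432 FPKM).

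Among exchange factors of the list, Tiam1 (14.4 and 12.02 FPKM, -0.24), Kalrn (20.1 and 13.5 FPKM, -0.54), Trio (8.66 and 6.14 FPKM, -0.44), Arhgef12 (23.4 and 19.9 FPKM, -0.22) and Arhgef11 (14.04 and 14.3 FPKM, 0.02) were within 2-fold. Vav3 was at 4.16 and 13.3 FPKM (1.47) and its relative Vav2 at 19.0 and 5.32 FPKM (-1.66). The adaptor gene Nck2 was at 2.85 and 9.74 FPKM (1.48) and the kinase gene Fes at 2.24 and 6.80 FPKM (1.27). Chn1 and Chn2, which encode chimaerins that inactivate Rac, were at 15.2 and 4.56 FPKM (-1.55) and at 8.37 and 2.05 FPKM (-1.62). The Chn2 locus also holds Prr15 and Wipf3, listed at 0 in both libraries, and Scrn1 (2.12 and 1.77 FPKM). How reads were divided among them was not tested. Also past 2-fold were the low genes Ablim3 (0.0490 and 1.44 FPKM), Dpysl5 (0.259 and 1.69 FPKM) and Pak3 (2.86 and 0.891 FPKM).

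Co-receptors and alternative partners of guidance ligands were described from 25 names. Of these 24 had a row and 17 were measured, 1 of them higher and 2 lower (median 0.11 on the log2 scale), or 5.88% and 11.8% beside 10.1% and 8.75% of protein-coding genes. The highest were Bsg (606 and 371 FPKM), Rtn4, the source of the axon inhibitor Nogo (94.1 and 109 FPKM), the beta-1 integrin gene Itgb1 (82.4 and 88.9 FPKM) and the syndecan gene Sdc4 (25.1 and 33.6 FPKM). Erbb2, a kinase that associates with plexin-B, was at 10.9 and 2.18 FPKM (-1.91), in a locus shared with Mien1 (47.3 and 32.5 FPKM). The Nogo receptor gene Rtn4r was at 2.22 and 0.242 FPKM (-1.38) and its co-receptor gene Lingo1 at 0.220 and 2.13 FPKM (1.36). Rtn4r thus reached 1 FPKM only in the control pool and Lingo1 only in the JAK2-V617F pool. Among the 14 partners at 1 FPKM or more in both pools, none was higher and 1 was lower. The shares of protein-coding genes at that level in both were 5.67% and 6.82%.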

How the data were processed

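RNA sequencing gave 1 library per genotype, each from cells pooled from 3 animals. Per the labels' protocols, 2 to 3 ng of RNA was amplified with Ovation RNA-Seq System v2, sonicated and made into libraries with a TruSeq DNA kit. Per the submitters' processing notes, the authors used TopHat2 2.0.7 with Bowtie2 2.0.6, cutadapt 1.2.1, Cufflinks and build GRCm38, and deposited FPKM values. For annotation, strand use and scaling between libraries, the methods were not given in the sources used here. FPKM values are not counts, and no test between genotypes was made.

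Computed here with Python 3.11.15, pandas 2.3.3 and scipy 1.17.1 were log2 ratios with a pseudocount of 1, for genes at 1 FPKM or more in a library, with calls at 2-fold. Protein-coding rows were found through GENCODE vM21 and RefSeq GRCm38.p6 symbols and synonyms. Row loci start from 0 in the table and from 1 here. Depth came from the steps of low FPKM values in 4426 genes with a single annotated transcript, after subtracting 160 nt from its length (an offset picked from 31 values between 0 and 300 as the sharpest). Whole numbers of fragments, to within 0.2, were obtained for 81.8% and 84.9% of values under 3.5 fragments, where even spread gives 40%. The unit and the offset were fitted to these same genes. Scripts were tested on simulated data. All measured members are named. Members, lists and thresholds were chosen with earlier results of these data known. Alternatives were other pseudocounts, filters and scalings.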

Additional observations from a re-analysis of the deposited data

How the results depend on the processing

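The numbers of higher and lower guidance genes depended on how low values were treated. Against 6 higher and 11 lower genes as reported, a pseudocount of 0.1 gave 11 higher and 12 lower (13.7% and 11.4% of protein-coding genes), a pseudocount of 5 gave 2 and 3 (2.36% and 3.03%), and a minimum of 5 FPKM gave 2 and 6 of 29 genes (6.74% and 7.98%). Rescaling both libraries to the same FPKM sum over all rows, which adds 0.18 to each log2 ratio before the pseudocount, gave 10 higher and 9 lower (13.1% and 6.73%). The same sum over protein-coding genes, or their median ratio set to 1, gave 7 and 9 each (11.5% and 7.68%, and 11.5% and 7.66%). The median log2 ratio, -0.02 as reported, was 0.0899 with no filter, -0.40 at 5 FPKM or more, 0.17 with the same sum over all rows, 0.12 with the same sum over protein-coding genes and 0.12 with the median ratio set to 1. The median of all protein-coding genes was 0.02 with no filter, -0.08 at 5 FPKM or more and 0.13 with the same sum over all rows. It was 0.05 with the same sum over protein-coding genes and 0.05 with the median ratio set to 1.

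All 6 higher calls and 9 of 11 lower calls held under the 3 rescalings, and Sema3b and Sema3g did not. Under every alternative applied to a gene, the calls of Sema4a, Ntn4, Slit2, Rgma and Plxna3 held. The other 12 calls were lost with a pseudocount of 5, which by construction shrinks ratios of low genes. Chosen after seeing the data, leaving out genes listed at 0 gave 5 higher and 11 lower of 52 (8.08% and 8.04% of protein-coding genes). Leaving out guidance genes whose row locus holds another protein-coding gene, chosen likewise, gave 4 and 10 of 49 (10.1% and 8.75%). Also chosen after seeing the data, 1 FPKM in both pools gave 2 and 6 of 39 genes (5.67% and 6.82% of protein-coding genes). The median was then -0.21, beside -0.06 for protein-coding genes, and 4 effectors were higher and 3 lower. In the effector list, 7 higher and 4 lower as reported, a pseudocount of 5 gave 2 and 2 (2.36% and 3.03% of protein-coding genes). Its median of 0.08 was 0.25 with the same sum over all rows, beside 0.13 for protein-coding genes. The counting interval of Efna2 uses its 1 annotated transcript, so the shortest and longest transcripts give the same value. No paired analysis was possible because each genotype has 1 library, and for the same reason no library could be left out.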

Other observations

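Genes related to the guidance families by name or partner, chosen after their values were seen, gave the following values. The row shared by Ntn3 and Tbc1d24 was at 5.34 FPKM in the control pool and 5.48 FPKM in the JAK2-V617F pool (log2 ratio 0.03), and the short netrin gene Ntn5 was below 1 FPKM in both (0.370 and 0.644). Lrrc4 and Lrrc4c, which encode the leucine-rich ligands of the netrin-Gs, were at 7.77 and 5.72 FPKM (-0.38) and at 5.24 and 4.997 FPKM (-0.06).

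The Slitrk genes encode transmembrane proteins with leucine-rich repeats like those of the Slits. Slitrk6 was the most abundant of the 6, at 6.60 and 2.86 FPKM (-0.98), just within 2-fold. Slitrk5 was at 1.25 and 1.52 FPKM (0.16) and Slitrk2 at 0.897 and 1.73 FPKM (0.52). Slitrk1 was below 1 FPKM in both libraries (0.792 and 0.130), and Slitrk3 and Slitrk4 reached 0.179 and 0.0539 FPKM in the JAK2-V617F pool and were listed at 0 in the other.

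Of 7583 protein-coding genes at 10 FPKM or more in a library, 3 at that level in the control pool were listed at 0 in the JAK2-V617F pool and 7 the other way round. Among the guidance genes, 7 were listed at 0 in the control only and none in the JAK2-V617F pool only, the library with the larger estimated depth. Zeros were more common in the control among all protein-coding genes too, at 32.9% there and 27.1% in the JAK2-V617F pool. Both shares include genes at 0 in both libraries.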
